A study of Canis lupus familiaris with 33 samples.

Results

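Gene expression was compared between 10 canine invasive urothelial carcinomas (iUC) with high FGFR3 and 10 with low FGFR3. The members were chosen by their measured FGFR3 value alone: the 29 tumors were put in order of it, the 10 highest were called FGFR3-high and the 10 lowest FGFR3-low, and the 9 tumors between them were left out of the comparison of groups. The series held 33 samples in all, the other 4 being normal bladder mucosa dissected from the bladders of dogs without bladder disease. All tumors were naturally occurring, treatment naive and of high grade, each from a different dog, and the labels give cystoscopy as the way they were collected. The labels name neither group: both were formed from measured FGFR3 RNA, and no FGFR3 genotype, sex, breed or stage was used here. Expression is given on the log2 scale after centring every gene on its median across the 33 samples, so 0 is the middle of the series and a difference of 1 between groups is a 2-fold change. Because each gene is centred, the values show how tumors differ in a gene and not how abundant the gene is.

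FGFR3 encodes fibroblast growth factor receptor 3, a receptor tyrosine kinase that binds FGF ligands together with heparan sulfate. The activated receptor phosphorylates adaptors such as FRS2 and signals through RAS and the mitogen-activated protein kinases, through PI3 kinase and through phospholipase C gamma, and the pathway is restrained by feedback inhibitors of the Sprouty and dual-specificity phosphatase families. In the human bladder, activating FGFR3 mutations and fusions with the neighbouring gene TACC3 are known drivers of papillary and luminal tumors, and high FGFR3 RNA is commonly counted among luminal features. Luminal tumors keep the program of differentiated urothelium, with uroplakins, GATA3, FOXA1 and PPARG, whereas basal and squamous tumors express keratins and desmosomal genes of the basal and stratifying layers.

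FGFR3 itself (gene ID ENSCAFG00000014993, dog chromosome 3) chose the groups, so its values are a description. In the FGFR3-high tumors it ran from 0.26 to 1.25, with a median of 0.70. In the FGFR3-low tumors it ran from -1.33 to -0.34, with a median of -0.63, and in the 9 tumors between from -0.30 to 0.25, with a median of 0.01. The group means were 0.67 ± 0.33 and -0.73 ± 0.38 (SD, n = 10 each), which lie 1.40 apart on the log2 scale, or 2.64-fold. The highest tumor lay 5.97-fold above the lowest. The SD of FGFR3 over the 29 tumors (0.66) was larger than that of 44.8% of the genes, so its spread was near the median of the genes (0.73). The order had no break at the edges of the groups. The last FGFR3-high tumor was at 0.2554 and the next tumor at 0.2547, the first FGFR3-low tumor was at -0.342 and its neighbour outside the group at -0.302, and the widest gap between neighbours in rank (0.271) came after rank 27. In the 4 normals FGFR3 was -0.66, -0.58, -0.36 and -1.24. All 10 FGFR3-high tumors lay above every normal, while of the FGFR3-low tumors 6 lay within the range of the normals, 2 above it and 2 below it. The normals also held more smooth muscle transcript (MYH11) than any tumor and had fewer genes not detected. Whether these differences bear on FGFR3 was not tested, so the normals are no matched baseline.

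**Figure D1:**
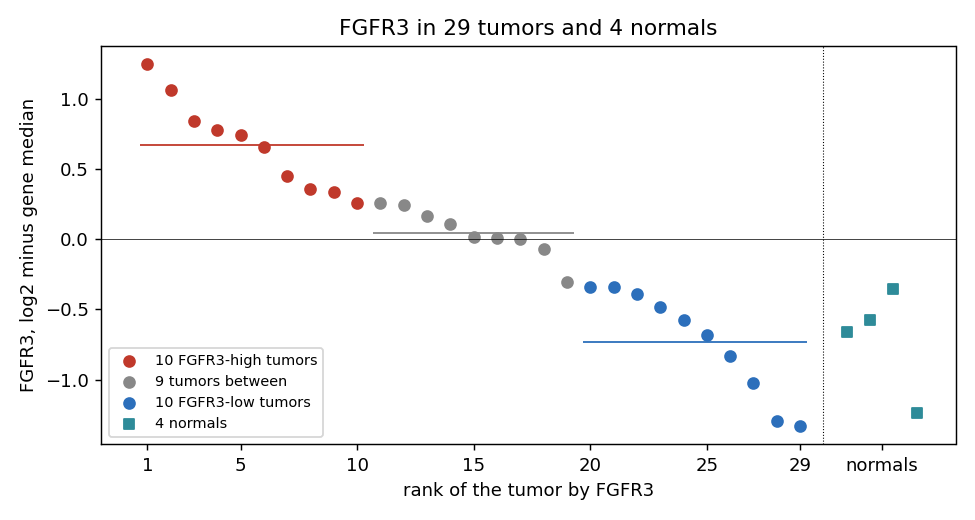
FGFR3 (log2 minus the gene median, vertical axis) in the 29 tumors in order of rank and in the 4 normals; horizontal lines are group means (0.67 for the 10 FGFR3-high and -0.73 for the 10 FGFR3-low tumors). The values step down without a break at the group edges, and the normals (-1.24 to -0.36) overlap the FGFR3-low tumors.

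Several tumors stood apart in single genes or in detection. Those of ranks 8, 21 and 25 were singled out after the data were seen. The FGFR3-high tumor of rank 8 had high RNA of keratins from the basal and squamous list, with KRT14 at 9.54 and KRT13 at 8.65, and low UPK1A at -4.65. These are RNA values alone, and the study reported squamous differentiation in none of its tumors. The FGFR3-low tumors of ranks 21 and 25 held high smooth muscle transcripts, with MYH11 at 4.00 and 4.79, against 5.56 to 7.41 in the normals. The number of genes at the lowest value that samples share, a sign of how many transcripts were not detected, was 3699 in the FGFR3-high tumor of rank 5 and 8175 in the FGFR3-low tumor of rank 24. Its mean was 6599 ± 1116 in FGFR3-high and 6850 ± 573 in FGFR3-low tumors (SD, n = 10 each; two-sided permutation test with 100000 resamples, p = 0.615), and it was 755 to 1019 in the normals. UPK1A, UPK2, UPK3A, EPCAM and CDH1 have no shared lowest value. They therefore counted as detected in all 20 tumors by rule, which cannot test whether the tissue matched its label. The study took in only tumors whose cells were nearly all epithelial by histology. In bulk samples fewer cells of a type and less RNA per cell cannot be told apart.

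No gene passed the test between FGFR3-high and FGFR3-low tumors. Of 20869 genes tested with limma, which were those above their shared lowest value in at least 4 of the 20 tumors or without such a value, 0 had an adjusted p of at most 0.05 with a 2-fold change (0%), and 0 did without the fold threshold. The smallest Benjamini-Hochberg adjusted p was 0.646. At an unadjusted p under 0.05 there were 1197 genes (5.74%), of which 545 were higher (2.61%) and 652 lower (3.12%) in FGFR3-high tumors. The group mean was higher in FGFR3-high tumors for 48.4% of all genes, the median difference over all genes was -0.01, and differences of at least 2-fold were seen in 367 genes upward (1.76%) and 646 downward (3.1%). There were 0 genes whose values did not overlap between the groups (0%). The data did bound the differences: the median 95% interval reached 0.65 to either side of the estimate on the log2 scale (1.57-fold), and for 11890 genes (57.0%) the whole interval lay within 2-fold in either direction. Larger differences remained possible for the other genes.

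**Figure D2:**
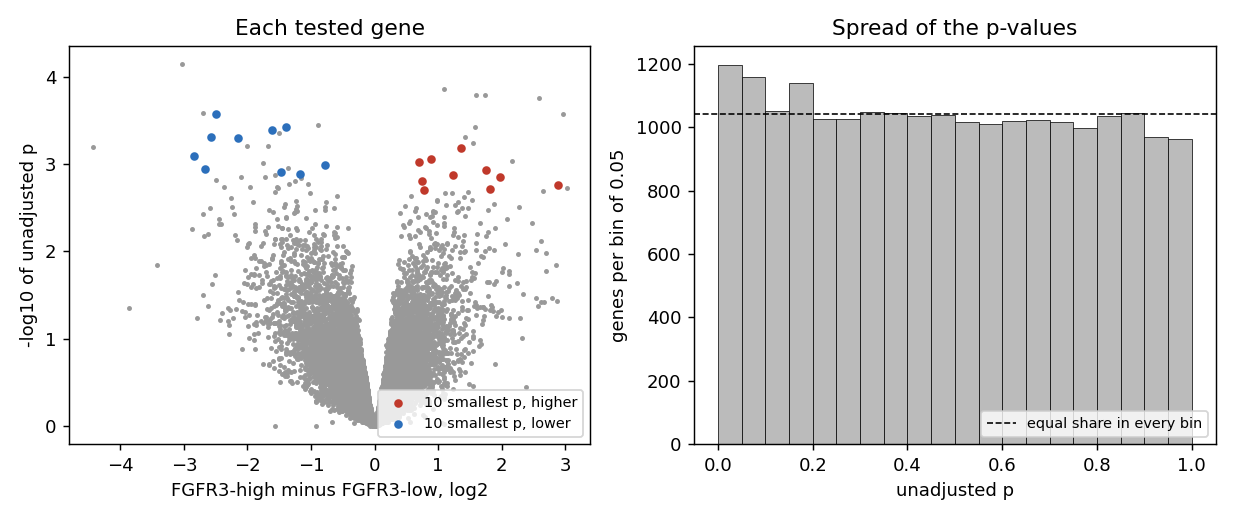
Left, the difference of group means (FGFR3-high minus FGFR3-low, log2, horizontal axis) against −log10 of the unadjusted p for 20869 genes, with the 10 genes with a symbol and the smallest p in each direction coloured. Right, the number of genes in each bin of unadjusted p; the first bin holds 1197 genes, somewhat above the dashed line that marks an equal share in every bin.

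No gene of FGF signaling passed the test, from which FGFR3 itself was left out. Of the receptors and coreceptors, 5 genes were tested, 2 higher and 3 lower in FGFR3-high tumors, with a median difference of -0.16. FGFR1, which is used by many mesenchymal cells, ran from -1.85 to 0.60 (median -0.29) in FGFR3-high and from -2.11 to 0.82 (median 0.23) in FGFR3-low tumors, a difference of -0.35 with a 95% interval from -1.13 to 0.43 (-0.22 without ranks 21 and 25). FGFR4 differed by 0.28 (-1.07 to 1.63), a sign that turned in some other settings, and the decoy-like receptor FGFRL1 by 0.18 (-0.54 to 0.90; -0.06 in the DESeq table ranked by its own FGFR3). KL, the coreceptor of endocrine FGFs, differed by -0.93 (-2.25 to 0.39), and by -0.58 without ranks 21 and 25. The groups overlapped widely in all 4 genes. FGFR2 was not analysed here. Among 9 further genes, 8 ligands and the ligand carrier FGFBP1, 3 had the higher and 6 the lower mean, with a median of -0.27 and none at an unadjusted p under 0.05. That median was -0.46 without the tumor of rank 8, -0.65 without ranks 5 and 24, and -0.16 without ranks 21 and 25. FGF1, which can bind all FGF receptors, differed by -0.50 (-0.16 without ranks 21 and 25) and FGF9, a ligand of FGFR3, by -0.92 (-0.59 without rank 8). FGF10, a stromal ligand, differed by -0.13, and by 0.16 without ranks 21 and 25.

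Of 16 adaptors and kinases that carry the FGF signal, 6 were higher and 10 lower, with a median difference of -0.07. FRS2, the docking protein that FGF receptors phosphorylate first, differed by -0.01 (0.0043 in the DESeq table), FRS3 by 0.45 (0.25 without ranks 5 and 24), PTPN11 by 0.13, BRAF by -0.08 and STAT3 by 0.24. SHC1, an adaptor that links receptors to RAS, was the 1 member at an unadjusted p under 0.05. Its values ran from -0.37 to 0.75 (median -0.09) in FGFR3-high and from -0.40 to 1.36 (median 0.73) in FGFR3-low tumors, with 4 of the 10 FGFR3-low tumors above every FGFR3-high tumor. The difference was -0.63 (SE 0.23, limma p = 0.0136, adjusted p = 0.843). Of 17 feedback and target genes of the MAPK pathway, 11 had the higher and 6 the lower mean, with a median of 0.20 that was 0.12 without rank 8. The phosphatase DUSP6, which dephosphorylates ERK, ran from -1.85 to 1.53 (median 0.20) in FGFR3-high and from -0.89 to 0.86 (median 0.19) in FGFR3-low tumors and differed by 0.18 (95% interval -0.54 to 0.89), or by 0.095 without rank 8. The feedback inhibitor SPRY1 differed by 0.12 (-0.11 with 12 tumors a group and -0.0018 in the DESeq table ranked by its own FGFR3), SPRY4 by 0.87 (p = 0.191), the ETS factor ETV4 by 0.53 and the cyclin CCND1 by 0.77 (p = 0.237). Among the 6 genes with the lower mean, SPRED3 differed by -0.70, ETV1 by -0.51 and MYC by -0.23. IER3, an immediate early gene, differed by 0.81 (limma p = 0.0482, adjusted p = 0.863). Its limma p was 0.087 without rank 8, 0.080 without ranks 21 and 25 and 0.102 without ranks 5 and 24.

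The EGFR family, the other large group of receptor tyrosine kinases of the urothelium, gave 7 tested genes, 3 higher and 4 lower, with a median of -0.23. HBEGF, the heparin-binding ligand of EGFR, had the smallest p of any list member. It ran from -0.17 to 1.48 (median 0.18) in FGFR3-high and from -1.92 to 0.87 (median -0.41) in FGFR3-low tumors, and all 10 FGFR3-high tumors lay above the FGFR3-low median, although the ranges overlapped through 2 FGFR3-low tumors at 0.21 and 0.87. Its difference was 0.91 (SE 0.29, limma p = 0.0046, adjusted p = 0.804), and it did not pass the test over all genes. EGFR differed by 0.08 (95% interval -0.43 to 0.59), and by 0.0059 without ranks 21 and 25. ERBB2 differed by -0.49 (-1.03 to 0.06), and in 1 FGFR3-low tumor, rank 26, it stood at 2.25, far above the other 19 tumors. ERBB3, the kinase-poor partner of ERBB2, differed by -0.23 (-0.59 to 0.13).

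Over all 22 lists, 230 different genes were tested. Of them, 15 (6.52%) had an unadjusted p under 0.05, against 5.74% of all genes, and the smallest adjusted p was 0.804.

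**Figure D3:**
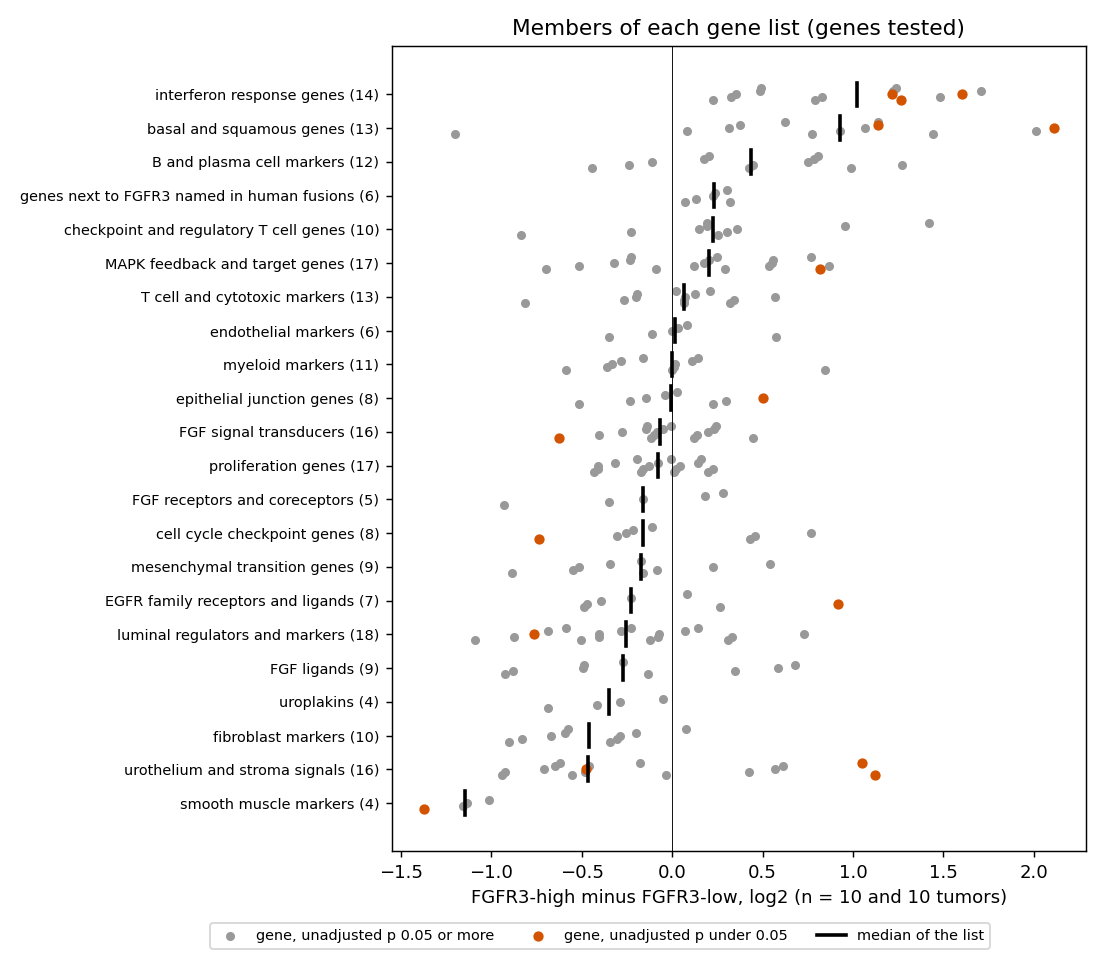
Difference of group means (FGFR3-high minus FGFR3-low, log2) for each member of 22 gene lists, with the number tested in parentheses; the black bar is the list's median and orange points have an unadjusted p under 0.05. List medians run from -1.15 (smooth muscle) to 1.02 (interferon response), and no member passed the adjusted threshold.

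The luminal lists had, on balance, the lower means where FGFR3 was higher, with no gene past the test. All 4 uroplakins, the membrane plaque proteins of umbrella cells, had a lower mean in FGFR3-high tumors, with a median difference of -0.35 and unadjusted p from 0.140 to 0.877. UPK2 ran from -1.70 to 0.81 (median 0.04) in FGFR3-high and from -1.10 to 0.52 (median -0.26) in FGFR3-low tumors, so its medians stood in the opposite order to its means, and its sign turned in 5 other settings. UPK1A differed by -0.69, and by -0.24 without the tumor of rank 8. Of 18 luminal regulators and markers, 5 had the higher and 13 the lower mean, with a median of -0.26. Without the tumor of rank 8 these were 7 and 11, with a median of -0.16. The regulators GATA3, FOXA1 and PPARG differed by -0.41 (95% interval -0.96 to 0.15), -0.40 (-0.997 to 0.19) and -0.50 (-1.14 to 0.13). Without the tumor of rank 8, PPARG differed by -0.27 and FOXA1 by -0.19. FBP1, a gluconeogenic enzyme used as a luminal marker, ran from -1.49 to 0.62 (median -0.28) in FGFR3-high and from -1.19 to 1.12 (median 0.33) in FGFR3-low tumors, a difference of -0.76 (SE 0.30, limma p = 0.0200, adjusted p = 0.853).

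Basal and squamous genes had the higher mean in FGFR3-high tumors in 12 of 13 cases, against 48.4% of all genes, with a median difference of 0.93. Measured in the same tumors, they are not separate observations, and 2 had an unadjusted limma p under 0.05. These 13 are the tested part of a list of 27, and KRT5 and TP63, which define basal urothelium, were not analysed here. The exception was TGM1 (-1.20), a transglutaminase of cornifying epithelium. Without the tumor of rank 8 the count was 12 of 13 and the median 0.50, and without ranks 5 and 24 the count was 11 of 13 and the median 0.86. Without the FGFR3-low tumors of ranks 21 and 25 the median was 1.24. KRT13, a keratin of stratified epithelium, ran from -0.84 to 8.65 (median 0.35) in FGFR3-high and from -2.98 to 0.52 (median -1.01) in FGFR3-low tumors, and all 10 FGFR3-high tumors lay above the FGFR3-low median. The difference was 2.11 (SE 0.88, limma p = 0.0251, adjusted p = 0.863) and 1.27 without rank 8 (p = 0.0098, adjusted p = 0.883). KRT14, the keratin of basal cells, differed by 1.14 (p = 0.319), and by 0.22 without rank 8. KRT17 differed by 2.01 (p = 0.056) and the desmoglein DSG3 by 1.07 (p = 0.375), or by 0.50 without rank 8. DSG3 reached 6.35 and 5.75 in the FGFR3-high tumors of ranks 1 and 8, and 5.94 in the FGFR3-low tumor of rank 21, so its high values stood in both groups. LAMB3, a laminin chain of the basement membrane, ran from -0.71 to 2.37 (median 0.60) in FGFR3-high and from -2.54 to 1.43 (median -0.37) in FGFR3-low tumors. It differed by 1.14 (SE 0.43, limma p = 0.0152, adjusted p = 0.851). The mean over the list in single tumors ran from -1.42 to 3.73 in FGFR3-high and from -2.09 to 1.54 in FGFR3-low tumors.

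The signals by which urothelium and stroma instruct each other gave 5 higher and 11 lower genes of 16, with a median of -0.47. The median was -0.28 without rank 8 and -0.23 without ranks 21 and 25. SHH, the hedgehog ligand of basal urothelium, differed by -0.55 (p = 0.145), and PTCH1, its receptor and target, by -0.48 (SE 0.22, p = 0.0390, adjusted p = 0.863). WNT4 and WNT5A had the higher mean in FGFR3-high tumors. WNT5A ran from -0.56 to 2.46 (median 0.42) in FGFR3-high and from -1.70 to 1.04 (median -0.47) in FGFR3-low tumors and differed by 1.05 (SE 0.38, limma p = 0.0112, adjusted p = 0.831). WNT4 differed by 1.12 (SE 0.43, p = 0.0155, adjusted p = 0.851). All 7 hedgehog genes of the list had the lower mean in FGFR3-high tumors, where 48.4% of all genes had the higher one. They belong to the same pathway and are not separate observations. Of these 7, PTCH1 alone had an unadjusted limma p under 0.05, which was 0.0735 without rank 8 and 0.0755 without ranks 21 and 25. SMO, a hedgehog gene outside the list, ran from -3.06 to 0.68 in FGFR3-high and from -0.12 to 1.21 in FGFR3-low tumors. Its group difference and p are not reported here. HHIP took the other sign (0.091) with the mean of the fibroblast markers as a covariate. Of 5 WNT ligands 4 had the higher mean and WNT2B the lower (-0.71).

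No marker of other cell types passed the test. All 4 smooth muscle markers tested had the lower mean in FGFR3-high tumors, where 48.4% of all genes had the higher one, with a median difference of -1.15 and a smallest adjusted p of 0.863. These 4 were measured in the same tumors and are not separate observations. MYH11, the myosin heavy chain of smooth muscle, ran from -0.93 to 1.61 (median -0.57) in FGFR3-high and from -0.59 to 4.79 (median 0.69) in FGFR3-low tumors. Its difference of -1.38 (p = 0.0279, adjusted p = 0.863) was -0.57 (p = 0.106) without ranks 21 and 25, and the list median was then -0.46, again with 4 of 4 below 0. Of 10 fibroblast markers, 9 had the lower mean (all but FBLN1, at 0.07), with a median of -0.46 and of -0.24 without ranks 21 and 25, and none had an unadjusted p under 0.05. COL1A1 differed by -0.83 and COL1A2 by -0.59, and without ranks 21 and 25 by -0.40 and -0.28. The 9 mesenchymal transition genes (2 higher, 7 lower, median -0.17), the 8 epithelial junction genes (4 and 4, median -0.00) and the 6 endothelial markers (4 and 2, median 0.02) had medians nearer 0. Without rank 8 the endothelial markers were 1 higher and 5 lower, with a median of -0.15, and the mesenchymal median was -0.37. CLDN7, a claudin, differed by 0.50 (p = 0.0402, adjusted p = 0.863) and CDH1 by 0.22 (p = 0.269). With the mean of the fibroblast markers as a covariate, limma also called 0 genes, with 482 higher and 584 lower at an unadjusted p under 0.05.

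Immune markers were spread over both groups. T cell and cytotoxic markers (9 of 13 higher, median 0.07) and myeloid markers (5 of 11 higher, median -0.00) had 0 members at an unadjusted p under 0.05, and so had B and plasma cell markers (9 of 12 higher, median 0.43) and checkpoint and regulatory T cell genes (8 of 10 higher, median 0.22). The tumor of rank 8 had a mean of 4.72 over the B and plasma cell markers, and without it 6 of 12 were higher with a median of 0.05. Without it 2 of 13 T cell markers and 5 of 10 checkpoint genes were higher, with medians of -0.18 and -0.03. CD274, which encodes PD-L1, differed by 0.36 (95% interval -0.22 to 0.93), and by 0.15 without that tumor.

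No interferon response gene passed the test, and all 14 genes tested, of 23 listed, had the higher mean in FGFR3-high tumors, against 48.4% of all genes, with a median difference of 1.02. The lists of smooth muscle markers, uroplakins and genes next to FGFR3 were also wholly on one side, with fewer genes each. The median was 0.99 without rank 8 and 0.90 without ranks 21 and 25, with 14 of 14 higher in both, and 0.93 without ranks 5 and 24, with 13 higher and 1 lower. With 14 tumors a group, which takes in most of the tumors between, it was 0.39. OAS3, an antiviral oligoadenylate synthetase, ran from -1.18 to 2.09 (median 1.23) in FGFR3-high and from -1.55 to 0.72 (median -0.50) in FGFR3-low tumors, and 6 FGFR3-high tumors lay above every FGFR3-low tumor while the other 4 (-1.18 to 0.37) lay within the FGFR3-low range. It differed by 1.26 (SE 0.44, limma p = 0.0087, adjusted p = 0.805). ISG15, a ubiquitin-like protein induced by interferon, differed by 1.60 (SE 0.74, p = 0.0407, adjusted p = 0.863) and OAS1 by 1.21 (p = 0.0360, adjusted p = 0.863). Without ranks 21 and 25 the limma p was 0.102 for ISG15 and 0.083 for OAS1. It was 0.0516 and 0.0497 without rank 8, and 0.0399 and 0.0339 without ranks 5 and 24. The mean over the 14 genes in single tumors was above 0 in 7 FGFR3-high tumors, from 0.31 to 2.22, and at -1.20, -0.95 and -1.45 in the tumors of ranks 1, 7 and 9. In the FGFR3-low tumors it ran from -1.53 to 0.55, and in the 9 tumors between from -1.37 to 2.25. The tumor with the highest FGFR3 was thus among the lowest for interferon genes, and the 14 genes answer the same signal, so they are not separate observations.

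None of the genes of cell division that were tested passed. They were 17 of 26 listed for proliferation, and MKI67 was not analysed here. Of the 17, 7 had the higher and 10 the lower mean, with a median of -0.08 (0.0075 without ranks 5 and 24) and 0 at an unadjusted p under 0.05; the topoisomerase TOP2A differed by -0.13 (95% interval -0.91 to 0.65; -0.014 without ranks 5 and 24) and the kinase CDK1 by 0.01, with the opposite sign in 7 other settings. Of 8 cell cycle checkpoint genes 3 were higher and 5 lower, with a median of -0.16. RB1, which holds cells before S phase, differed by -0.22, and by -0.078 without ranks 21 and 25. CDK6, which drives entry into S phase with D-type cyclins, ran from -1.35 to 0.99 (median -0.32) in FGFR3-high and from -0.50 to 1.31 (median 0.71) in FGFR3-low tumors and differed by -0.73 (SE 0.30, limma p = 0.0218, adjusted p = 0.853). The limma p of CDK6 was 0.0634 without ranks 5 and 24, 0.0459 without rank 8 and 0.0190 without ranks 21 and 25.

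Because fewer than 5 genes passed in either direction, the genes with the smallest p in each direction are given, 10 higher and 9 lower, none past the threshold (adjusted p 0.646 to 0.764). Higher in FGFR3-high tumors were HR, a corepressor, by 1.35 (SE 0.34), CARD10, a scaffold of NF-κB signaling, by 0.88 (SE 0.23), the deubiquitinase USP43 by 0.71, the phospholipase PLCH2 by 1.75, AMER3 by 1.24, the riboflavin transporter SLC52A3 by 1.97, SHMT1, an enzyme of folate metabolism, by 0.75, the annexin ANXA10 by 2.89, the ribonuclease RNASE4 by 1.82, and RPS6KA1, a kinase downstream of ERK, by 0.77. CARD10 ran from -0.53 to 1.52 (median 0.41) in FGFR3-high and from -1.24 to 0.57 (median -0.53) in FGFR3-low tumors, and the groups overlapped through the FGFR3-high tumor of rank 9 and the FGFR3-low tumor of rank 24. ANXA10 ran from -3.41 to 2.68 (median 1.57) in FGFR3-high and from -3.68 to 2.32 (median -2.74) in FGFR3-low tumors, and from -4.72 to -2.56 in the normals. In ANXA10, 9 FGFR3-high tumors stood above 0 and 8 FGFR3-low tumors below it. AMER3 was above its shared lowest value in 9 FGFR3-high and 2 FGFR3-low tumors. It thus passed the filter on low values only through the group where it is high, and its difference is no support for a change.

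Lower in FGFR3-high tumors, with the difference in parentheses, were HS3ST5, which sulfates heparan chains (-2.49, SE 0.57), the fatty acid desaturase FADS2 (-1.40, SE 0.33), TMEM108 (-1.61), the fatty acid elongase ELOVL4 (-2.57), VWDE (-2.15), the transcription factor GATA4 (-2.83), the reticulon RTN2 (-0.79), the endophilin SH3GL3 (-2.67) and the lipocalin receptor SLC22A17 (-1.47). HS3ST5 ran from -3.94 to 0.92 (median -1.07) in FGFR3-high, where 2 tumors were at its shared lowest value, and from -1.48 to 2.14 (median 1.14) in FGFR3-low tumors. FADS2 ran from -3.02 to -0.09 (median -0.96) in FGFR3-high and from -0.52 to 1.28 (median 0.23) in FGFR3-low tumors. In both genes all 10 FGFR3-high tumors lay below the FGFR3-low median, and in the 9 tumors between, the median was -1.34 for HS3ST5, below that of the FGFR3-high tumors, and 0.28 for FADS2, above that of the FGFR3-low tumors. Neither gene therefore stepped evenly from high to low FGFR3.

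**Figure D4:**
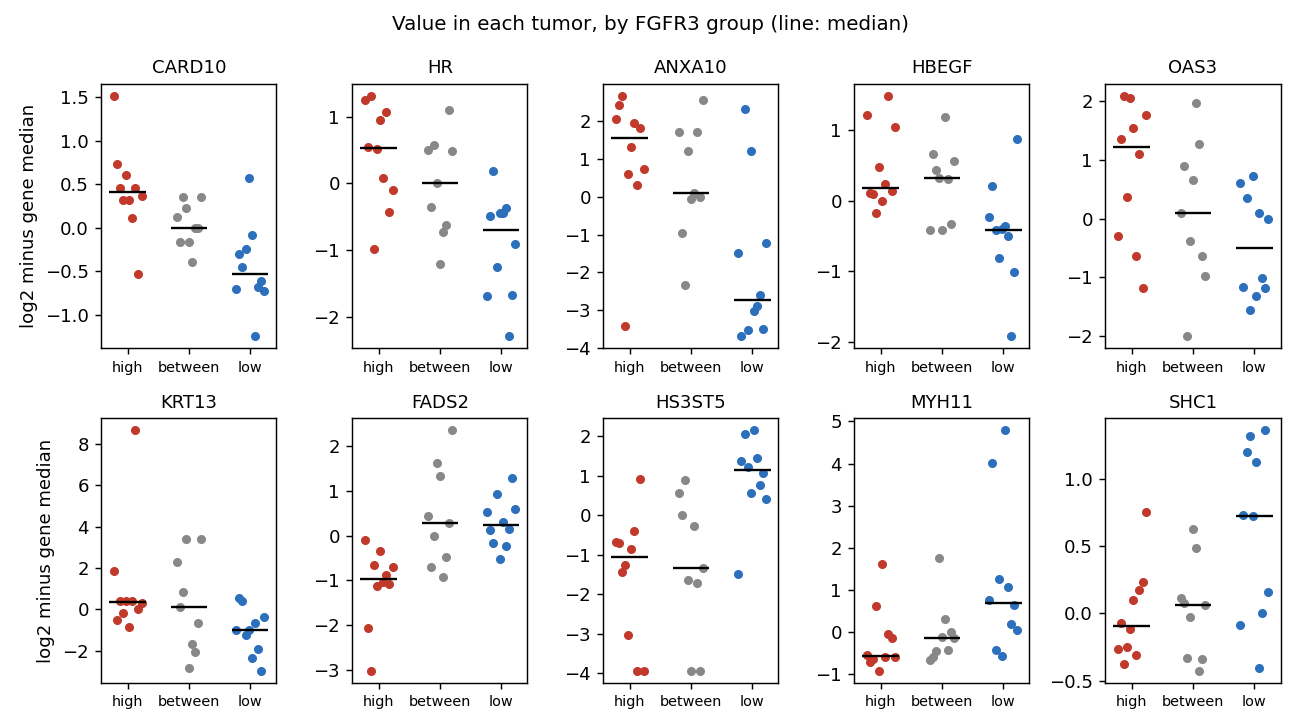
Value in each tumor (log2 minus the gene median) for 10 genes named in the text, by FGFR3 group (10 high, 9 between, 10 low; the line is the median). The groups overlap in every panel, single tumors set the top of KRT13 (8.65) and MYH11 (4.79), and in HS3ST5 the tumors between lie near the FGFR3-high ones.

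The 9 tumors between the groups did not choose the genes and gave a view of them that the ranking at its ends had not used. The slope of each gene on FGFR3 within these 9 tumors had the direction of the group difference for 10411 of 20730 genes (50.2%), for 563 of 1191 genes with an unadjusted p under 0.05 (47.3%) and for 10 of the 20 genes with the smallest p, 10 in each direction. FGFR3 spans only -0.30 to 0.25 in these tumors, and the median SE of a slope was 1.34, so slopes of the size seen over all tumors were not detectable there.

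When the 29 tumors were used as a series, with a slope of each gene on FGFR3, 0 of 20869 genes had an adjusted p of at most 0.05 (0%), and 1461 had an unadjusted p under 0.05 (7%). The smallest adjusted p was 0.0773, for CARD10, with a slope of 0.64 (SE 0.11) per unit of log2 FGFR3. This fit shares its 20 outer tumors with the comparison of groups and is no separate evidence.

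Genes beside FGFR3 on chromosome 3 leaned the same way by a small amount, with none past the test. Of 24 protein-coding genes, the 12 on each side of FGFR3 in the RefSeq gene order, 19 were tested, and 18 had the higher mean in FGFR3-high tumors, the exception being ZFYVE28 (-0.17). The 19 genes lie close together in that order and were measured in the same tumors, so they are not separate observations. Their differences were small, from -0.17 to 0.48 with a median of 0.17, and the smallest unadjusted p was 0.102 (adjusted p = 0.883). The window was chosen after the data were seen. With 6 genes on each side, 8 of 8 tested were higher, with a median of 0.18. So did the whole chromosome: 232 of its 357 matched genes (65.0%) were higher, with a median of 0.08, against 47.7% of the 10752 matched genes of all chromosomes. The fusion partner TACC3, next to FGFR3, ran from -1.49 to 0.91 (median 0.20) in FGFR3-high and from -0.66 to 1.26 (median -0.28) in FGFR3-low tumors, a difference of 0.24 (95% interval -0.32 to 0.79; 0.36 without ranks 5 and 24). LETM1, on its other side, differed by 0.30 (-0.07 to 0.67), SLBP by 0.32 (-0.09 to 0.73) and TMEM129 by 0.13 (-0.32 to 0.58; 0.22 without ranks 5 and 24).

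**Figure D5:**
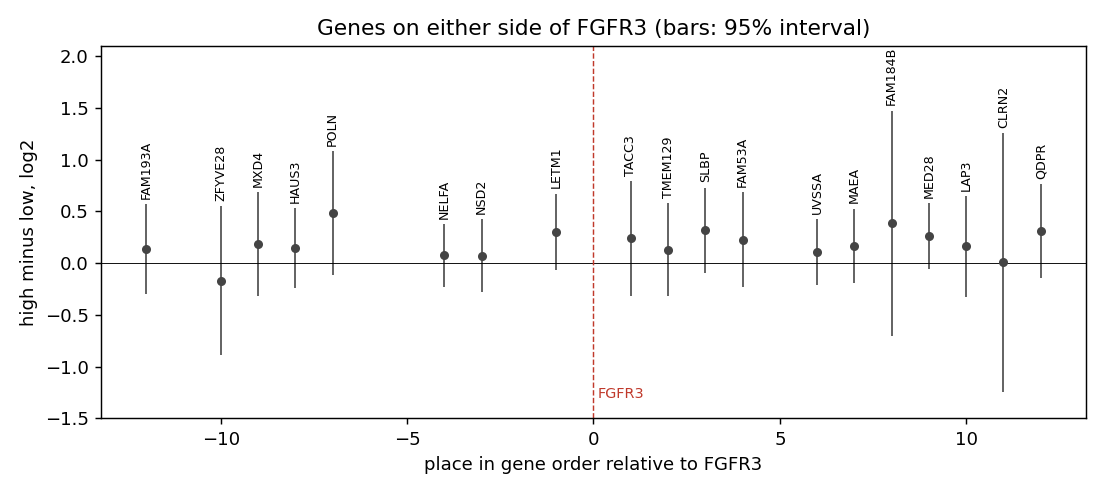
Difference of group means (FGFR3-high minus FGFR3-low, log2; bars are 95% intervals) for the 19 tested genes among the 12 on each side of FGFR3, by place in the gene order. The points lie between -0.17 and 0.48, 18 of them above 0, and every interval includes 0.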

How the data were processed

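RNA depleted of ribosomal RNA from 29 tumors and 4 normals was run in 1 sequencing batch. Reads were aligned by the authors to CanFam3.1 with COBWeb in Strand NGS 3.1. The authors deposited log2 values, normalized by TMM or by DESeq and centred on the median of each gene. The values are not counts, the depth of a sample is unknown, and strand use in counting is not given in the sources used here. A lowest value shared by at least 2 samples was taken as not detected. The last line of each table was incomplete and was left out, which leaves 25096 genes (12202 with a symbol) in the TMM table, used throughout. The authors' DESeq table, used as an alternative, holds 25139.

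FGFR3 ranked the tumors and was not tested. The 2 groups were fitted by limma (version 3.58.1, under R 4.3.3; moderated, two-sided, with a trend of variance on the mean, and Benjamini-Hochberg adjustment over all genes tested), and the procedure was tested on simulated data. A call needed both a 2-fold difference and an adjusted p not above 0.05. From each gene list, the called members and those with an unadjusted p under 0.05 were named, with others taken in list order; where fewer than 5 genes passed in a direction, the 10 with a symbol and the smallest p were named. Of the genes this rule gives, 3 are not reported here. PTPN11, BRAF, STAT3, SPRY4, ETV4, CCND1, SPRED3, ETV1, MYC, SMO, WNT2B, TGM1, FBLN1 and ZFYVE28 were named after their values were seen. The ranking, the lists and the named genes were chosen with earlier results of these data known. Neighbours and chromosomes came from RefSeq names and gene order of another assembly (UU_Cfam_GSD_1.0), so no coordinates are given. Alternatives were that second table, other filters, fits without the trend or with a covariate (fibroblast or epithelial mean, number of genes not detected, style of the sample title), other group sizes and left-out tumors, the last partly chosen after seeing the data. Tables and plots were made with pandas 2.3.3, matplotlib 3.10.9, scipy 1.17.1 and numpy 2.4.6 under Python 3.11.15.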

Additional observations from a re-analysis of the deposited data

Results flagged for a closer look

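Within each group of 10 tumors, a value was picked out when the gap from it to the nearest tumor was large for the range of the group, a test that chance meets in about 1 of 20 groups. It picked out 32 of 202 groups tested, against 10.1 at that rate. The same tumors recur in every gene, so the 202 are not separate and an excess over that rate cannot be read from them. Among FGFR3-high tumors the lowest tumor stood apart in ANXA10 (-3.41), FGF4 (-3.35), DUSP6 (-1.85), ERBB2 (-1.24), TACC3 (-1.49), UPK1A (-4.65), PPARG (-2.33), HHIP (-3.35), TOP2A (-2.66) and the number of genes at the lowest value (3699). The highest stood apart in SH3GL3 (2.62), KRT14 (9.54), KRT13 (8.65), ZEB1 (2.05), ACTG2 (1.94), PECAM1 (1.94) and CD274 (1.96). The tumor of rank 8 gave the values of ERBB2, UPK1A, PPARG, HHIP, KRT14, KRT13, ZEB1, PECAM1 and CD274.

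Among FGFR3-low tumors the lowest tumor stood apart in USP43 (-1.01), HS3ST5 (-1.48), VWDE (-2.56), FRS3 (-1.82), SPRY1 (-2.47), FBP1 (-1.19), CLDN3 (-2.81) and CD274 (-1.32), and the highest in RPS6KA1 (0.73), RTN2 (1.03), ERBB2 (2.25), TACC3 (1.26), DSG3 (5.94), CLDN7 (1.09) and the number of genes at the lowest value (8175).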

How the results depend on the processing

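The comparison of groups called 0 genes in either direction under all 16 alternatives and without the fold threshold. The smallest adjusted p was between 0.184 and 0.936 over these settings, and at an unadjusted p under 0.05 there were 409 to 706 higher and 504 to 950 lower genes. The ranking by the DESeq table shared 9 of the 10 FGFR3-high and all 10 FGFR3-low tumors. Without a filter on low values, the slope over 29 tumors passed an adjusted p of 0.05 in 1 gene, CARD10 (adjusted p = 0.0493). The number of genes at the lowest value gave p = 0.629 in the DESeq table. The medians of 10 of the 22 lists took both signs over the settings, among them FGF receptors (-0.30 to 0.070), mesenchymal genes (-0.47 to 0.12), fibroblast markers (-0.70 to 0.027) and T cell markers (-0.36 to 0.47), while the interferon median ran from 0.39 to 1.11 and the basal one from 0.50 to 1.49. Of 101 named genes, 0 passed in the comparison of groups under any alternative, and 22 took the other sign in at least 1 setting, in 62 of 1616 values. With 8 tumors a group these were FGFR4 -0.30, FGF10 0.32, FRS2 0.12, EGFR -0.034, ZEB1 0.10, ZEB2 0.10, PDCD1LG2 0.16 and CDK1 -0.19. With 12 they were DUSP4 0.086, SPRY1 -0.11, UPK2 0.11, PECAM1 -0.26, CDH5 -0.23, CD2 -0.039, CD3D -0.081, CSF1R -0.16 and CDK1 -0.038, and with 14 KL 0.070, DUSP4 0.075, SPRY1 -0.055, TMEM129 -0.025, UPK2 0.060, CD2 -0.072, CSF1R -0.21 and CDK1 -0.071. In the DESeq table they were FRS2 0.0043 with the TMM groups, and FGFRL1 -0.061, FRS2 0.013, SPRY1 -0.0018, UPK2 0.076, PECAM1 -0.025 and CDK1 -0.099 with its own ranking. With a covariate for the style of the title they were FGFR4 -0.0088, FRS2 0.062, UPK2 0.011, GRHL2 0.012, CLDN3 0.022, PECAM1 -0.19, CDH5 -0.20 and CSF1R -0.092. With the fibroblast mean they were FGF10 0.42, HHIP 0.091, ZEB1 0.20, ZEB2 0.12 and CDK1 -0.046, with the epithelial junction mean CDK1 -0.013, and with the number of genes at the lowest value FRS2 0.048 and CSF1R -0.038. Without the tumors of ranks 5 and 24 they were FRS2 0.019, PECAM1 -0.027 and CSF1R -0.083. Tumors left out after seeing the data gave a further set: without rank 8 they were FRS2 0.060, UPK2 0.11, GRHL2 0.062, PECAM1 -0.19, CDH5 -0.11, CD3D -0.047, CSF1R -0.047 and CDK1 -0.0067, and without ranks 21 and 25 FGFR4 -0.25, FGF10 0.16 and ZEB1 0.035. The cause of these changes was not tested.

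No paired analysis was possible because the labels pair no tumor with another. The groups were cut from an unbroken range of FGFR3, the depth of each tumor is unknown, and 10 tumors a group leave a typical difference uncertain by 1.57-fold in either direction.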
